A study of Mus musculus with 8 samples.

Results

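The cluster of miR-191 and miR-425 consists of 2 neighbouring hairpins, Mir191 and Mir425, which are cut from a shared primary transcript and give 4 mature miRNAs: mmu-miR-191-5p, mmu-miR-191-3p, mmu-miR-425-5p and mmu-miR-425-3p (mmu, for mouse, is left out below). The members were taken by name, and all 4 were present among the 1915 mature miRNA names in the deposited files. The libraries came from the prefrontal cortex of C57BL/6 mice aged 12 weeks and were read by small RNA sequencing. Wild type had 4 libraries, numbered 1, 2, 3 and 4. The Fkbp5 knockout also had 4, numbered 1, 2, 4 and 5. FKBP51, the protein lost in the knockout, acts with Hsp90 to dampen glucocorticoid receptor signalling. The labels give no account of how the allele was made, of sex, or of whether each library is 1 animal, so p-values here reflect the spread of these libraries, which may be technical.

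A miRNA hairpin can release a mature strand from each arm, named 5p and 3p. One strand is usually kept by an Argonaute protein as the guide and the other is mostly degraded as the passenger. The guide finds messenger RNAs chiefly through its seed, bases 2 to 8, and lowers their stability and translation. miR-191-5p is found in most tissues and is widely used as a reference miRNA in quantitative PCR, and miR-425-5p is likewise broadly expressed.

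The mature sequences are shown because the results turn on how differently these strands accumulate. They are RefSeq's on GRCm38.p6, 5′ to 3′, with the seed in capitals.
miR-191-5p: cAACGGAAucccaaaagcagcug
miR-191-3p: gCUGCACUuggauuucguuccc
miR-425-5p: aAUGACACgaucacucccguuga
miR-425-3p: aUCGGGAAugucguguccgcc
The 4 seeds differ from each other. In the RefSeq table the seed of miR-425-5p is shared with miR-489-3p, and the other 3 seeds are shared with no other mature mouse miRNA. miR-489-3p was at 0 in 7 libraries and at 1 in knockout replicate 2, so miR-425-5p supplied nearly all of the measured miRNA with that seed. None of the 4 strands begins with U, the first base of 41.0% of the 510 tested miRNAs that could be matched to a sequence: miR-191-5p begins with C, miR-191-3p with G, and both arms of miR-425 with A.

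The hairpins are shown with both mature arms in capitals, to place the strands on their precursors.
Mir191: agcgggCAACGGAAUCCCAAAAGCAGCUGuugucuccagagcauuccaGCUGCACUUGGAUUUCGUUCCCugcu
Mir425: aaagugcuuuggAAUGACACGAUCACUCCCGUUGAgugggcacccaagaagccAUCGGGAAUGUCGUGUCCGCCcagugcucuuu
Mir191 spans 74 bases (chr9:108568319-108568392, plus strand) and Mir425 spans 85 (chr9:108568777-108568861, plus strand), with 384 bases between them. In their predicted folds, 17 base pairs join the arms of Mir191 and 14 those of Mir425, with minimum free energies of -35.0 and -31.7 kcal per mol. The RefSeq extent of Dalrd3 (chr9:108567484-108572773), a protein-coding gene, holds both hairpins. GENCODE vM21 starts Dalrd3 1024 bases after Mir425 and places both hairpins in an exon of a noncoding transcript, 4833445I07Rik-201. In the spliced form 4833445I07Rik-202, Mir191 is intronic and Mir425 lies outside. A predicted miRNA gene, Gm24083 (chr9:108568295-108568414), overlaps Mir191 on the minus strand, and whether the authors' counting used strand is not given in the sources used here.

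Library totals lay between 16.2 and 21.6 in units of 1000000 and correlations of log2 values between libraries from 0.984 to 0.994 across 599 tested miRNAs. The labelled tissue was checked against miRNA markers of neurons, which do not test the brain region. The 6 neuronal markers, miR-128-3p, miR-9-5p, miR-9-3p, miR-124-3p, miR-138-5p and miR-137-3p, were all tested and summed to between 390495 and 464017 parts in 1000000 (ppm) of each library's total. Small RNA libraries do not hold Fkbp5 messenger RNA, so the genotype labels could not be checked. Values below were rescaled, using a trimmed mean of the log ratios between libraries, unless they are ratios or shares within a library, and they have no fixed unit.

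miR-191-5p dominated the output of the locus, with 95.1 ± 0.993% (SD, n = 8) of the summed values of the 4 strands. miR-425-5p made up 4.55 ± 0.997%, miR-191-3p 0.313 ± 0.0383% and miR-425-3p 0.0853 ± 0.0118%. As a part of the library total, miR-191-5p stood at 3502 ± 259 ppm, miR-425-5p at 166 ± 31.5, miR-191-3p at 11.5 ± 1.37 and miR-425-3p at 3.16 ± 0.581. The ranges of the 4 strands did not overlap in any of the 8 libraries. miR-191-5p was between the 25th and the 29th name by level in every library. By mean level it stood 27th of 599, between miR-103-3p (77059) and miR-139-5p (64264). miR-425-5p stood 134th, miR-191-3p 314th and miR-425-3p 414th. The neighbours of miR-425-5p in that order, miR-381-3p (3130) and miR-410-3p (3041), were closer to it than its own SD between libraries. These are values in libraries: how well each strand was ligated was not measured.

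The guide strand of Mir191 was at a nearly constant level between libraries. miR-191-5p was at 61275, 64324, 63337 and 67169.7 in wild-type replicates 1, 2, 3 and 4, and at 66177, 72856, 65366 and 65064 in knockout replicates 1, 2, 4 and 5. The highest library was 1.19-fold above the lowest, the groups overlapped, and knockout replicate 2 stood above the other 7. The mean was 64026 ± 2451 in wild type against 67366 ± 3690.4 for the knockout (SD, n = 4 each). The log2 fold change was 0.07 ± 0.08 (SE). The adjusted p by limma was 0.994 over all 599 miRNAs. The 95% interval of the fold change ran from 0.926 to 1.19, so a 1.5-fold change in either direction lay outside it.

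miR-425-5p, the guide strand of Mir425, varied more. It was at 4072, 3182, 3652 and 2164 in wild-type replicates 1, 2, 3 and 4 and at 3150.2, 2575, 3025 and 3166 in knockout replicates 1, 2, 4 and 5. The wild-type libraries held both the highest and the lowest value, 1.88-fold apart, and the 4 knockout libraries lay between them. The mean was 3267.5 ± 820.3 in wild type against 2979 ± 277 for the knockout, and the log2 fold change was -0.10 ± 0.18 (SE). limma gave an adjusted p of 0.994, and the 95% interval of the fold change ran from 0.711 to 1.22.

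The 3p strands, the passengers by level, were also measured in every library. miR-191-3p was at 235, 178, 205 and 262 in wild-type replicates 1, 2, 3 and 4 and at 209, 208, 211 and 222.4 in knockout replicates 1, 2, 4 and 5. The knockout libraries sat close together, inside the wild-type range. Means were 219.7 ± 36.4 and 213 ± 6.54, with a log2 fold change of -0.03 ± 0.15 (SE), an adjusted p of 0.994 by limma and a 95% interval of the fold change from 0.781 to 1.22. miR-425-3p, the scarcest, was at 39.5, 64.0, 58.3 and 65.4 in wild type and at 55.5, 63.8, 58.6 and 67.0 in the knockout, in the same order of replicates. Wild-type replicate 1 was lowest and the other 7 lay between 55.5 and 67.0. Means were 56.8 ± 11.9 and 61.2 ± 5.14, with a log2 fold change of 0.13 ± 0.20 (SE), an adjusted p of 0.994 by limma and an interval from 0.808 to 1.48. Its values as deposited were low, at 44 to 78, and fold changes within that interval were not excluded for this strand.

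**Figure D1:**
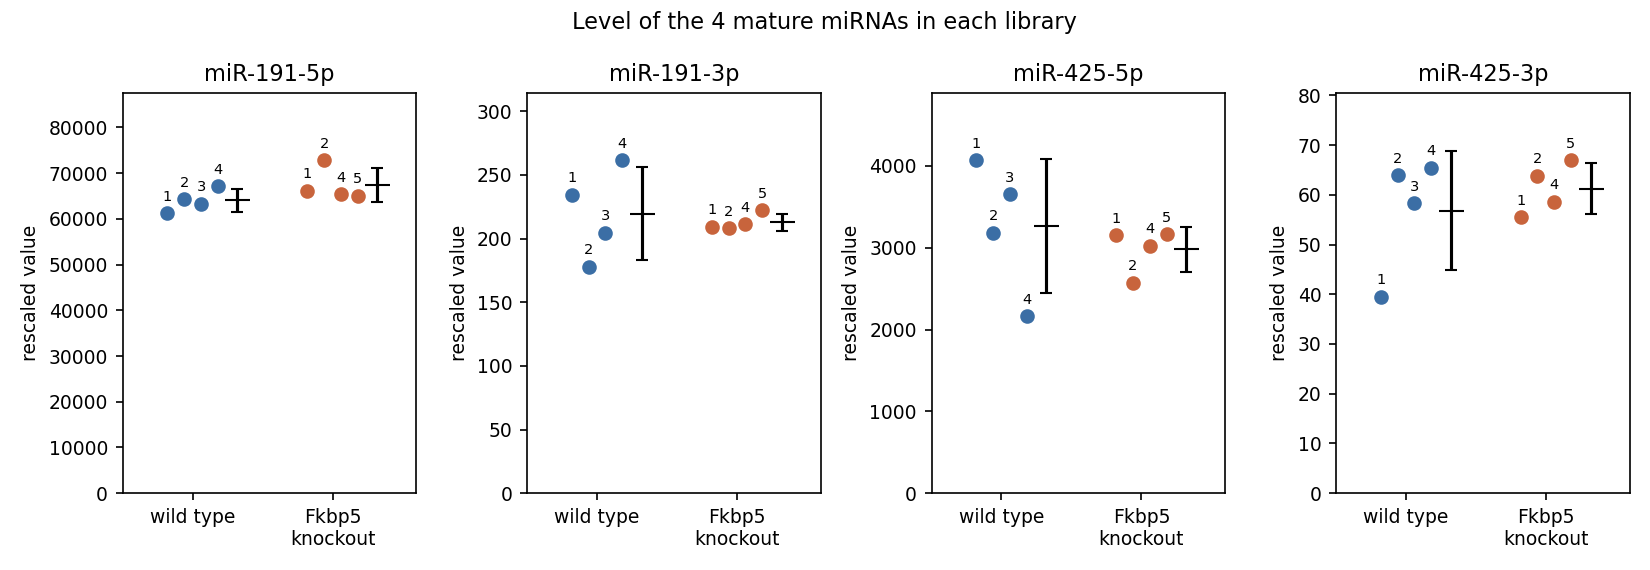
Rescaled value (no fixed unit, axes from 0) of each strand in 4 wild-type (blue) and 4 Fkbp5 knockout (orange) libraries; numbers are replicate numbers, and bars are the mean ± SD. The groups overlap for all 4 strands, and miR-191-5p differs by 1.19-fold between its highest and lowest library against 1.88-fold for miR-425-5p.

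The comparison of genotypes thus gave 0 calls among the 4 strands at an adjusted p of 0.05 by limma, against 0% of all 599 miRNAs tested. None of the 4 had an unadjusted p under 0.05, against 4.01% of all tested miRNAs. The groups of 4 libraries overlapped for each strand, and they were separate for 1.5% of all tested miRNAs. By sign, 2 strands were higher and 2 lower in the knockout. Their median log2 fold change was 0.02, beside 0.02 over all tested miRNAs. Without wild-type replicate 1 the signs of miR-191-3p (0.01), miR-425-5p (0.03) and miR-425-3p (-0.02) turned. Without wild-type replicate 4 that of miR-191-3p also turned (0.04), and miR-425-5p was at -0.30 (adjusted p = 0.758 by limma). In bulk tissue, fewer cells of a type and less RNA per cell cannot be told apart, so equal means do not show equal levels in each cell type.

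Summed over the 4 strands, the cluster took 3401, 3784, 3493 and 3654 ppm of the library total in wild-type replicates 1, 2, 3 and 4. In knockout replicates 1, 2, 4 and 5 it took 3396, 4007, 3697 and 4035. The means were 3583 ± 169.8 and 3784 ± 301 (SD, n = 4 each). The groups overlapped, since knockout replicate 1 was the lowest of all 8 while replicates 2 and 5 were the highest. The difference of 200.4 ppm had a two-sided exact permutation p of 0.343 over 70 arrangements, and 0.543 after adjustment over 3 such tests. The smallest p that this design allows is 0.0286. Shifts from -387 to 633 ppm were not rejected.

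The relative output of the hairpins was not fixed between libraries. miR-191-5p exceeded miR-425-5p by 15.05-, 20.2-, 17.3- and 31.0-fold in wild-type replicates 1, 2, 3 and 4. The ratio was 21.0, 28.3, 21.6 and 20.6 in knockout replicates 1, 2, 4 and 5. This ratio needs no scaling between libraries. Wild-type replicate 4 and knockout replicate 2 were high, wild-type replicates 1 and 3 were low, and 3 knockout libraries lay within 20.6 to 21.6. Mean log2 ratios were 4.33 ± 0.45 for wild type and 4.50 ± 0.22 for the knockout (SD, n = 4 each). Their difference of 0.17 had an exact permutation p of 0.543 (two-sided, adjusted p also 0.543), with shifts from -0.59 to 0.91 not rejected. Summing both arms of each hairpin gave 4.31 ± 0.44 and 4.48 ± 0.21, a difference of 0.17 and an exact permutation p of 0.543. The 5p arms make up nearly all of these sums, so the summed ratio is not a separate check. Without wild-type replicate 1 the difference was 0.03 (exact permutation p = 0.857). Without wild-type replicate 4 it was 0.38 (exact permutation p = 0.0571). With a library left out, 0.0571 is the smallest p that this test can give, so neither test could pass. Without wild-type replicate 4 the groups did not overlap, with log2 ratios of 3.91 to 4.34 in wild type and 4.36 to 4.82 in the knockout. Replicate 4 itself was at 4.96, above every knockout library, so with all libraries kept the groups overlapped. Each library was left out in turn. How often other ratios separate after an omission was not counted, so this separation is only a description.

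Both hairpins kept the 5p arm, and Mir191 did so more strictly than Mir425 in each library. In the miR-191 hairpin the 3p arm made up 0.381, 0.276, 0.322 and 0.388% of both arms in wild-type replicates 1, 2, 3 and 4. It made up 0.315, 0.285, 0.322 and 0.341% in knockout replicates 1, 2, 4 and 5. In other terms the deposited value of miR-191-5p was between 257 and 362 times that of miR-191-3p. In the miR-425 hairpin the 3p share was 0.962, 1.97, 1.57 and 2.93% in wild type and 1.73, 2.42, 1.90 and 2.07% in the knockout. The deposited value of miR-425-5p was between 33.1 and 103 times that of miR-425-3p. The lowest 3p share of Mir425 was above the highest of Mir191. The widest gap was within wild type, between replicate 1 and replicate 4.

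By genotype, the 3p share was 0.342 ± 0.0532% for wild type and 0.316 ± 0.0231% for the knockout at Mir191, and 1.86 ± 0.828% and 2.03 ± 0.294% at Mir425 (SD, n = 4 each). The log2 ratio of 5p to 3p, with 0.5 added to each arm, differed by 0.10 ± 0.19 (SE) for Mir191 and by -0.23 ± 0.29 for Mir425, knockout minus wild type. By limma, both had an adjusted p of 0.975 over 141 hairpins. Neither passed at an adjusted p of 0.05, against 0% of the 141, nor at an unadjusted p of 0.05, against 2.13%. The 95% intervals were -0.30 to 0.51 and -0.87 to 0.41. Without wild-type replicate 1 the value of Mir425 turned to 0.05, and without wild-type replicate 4 it was -0.49. Among the 141 hairpins the minor arm had a median share of 8.88%. Mir191 had the 13th lowest minor-arm share and Mir425 the 36th lowest. In spread of the log2 arm ratio over 8 libraries, Mir191 was 22nd from the lowest (SD 0.18) and Mir425 128th (SD 0.48), around a median of 0.28. These ranks were not matched for level. The 3p arm as deposited was at 44 to 78 for Mir425 and at 172 to 261 for Mir191, and the part of level in this contrast was not tested.

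**Figure D2:**
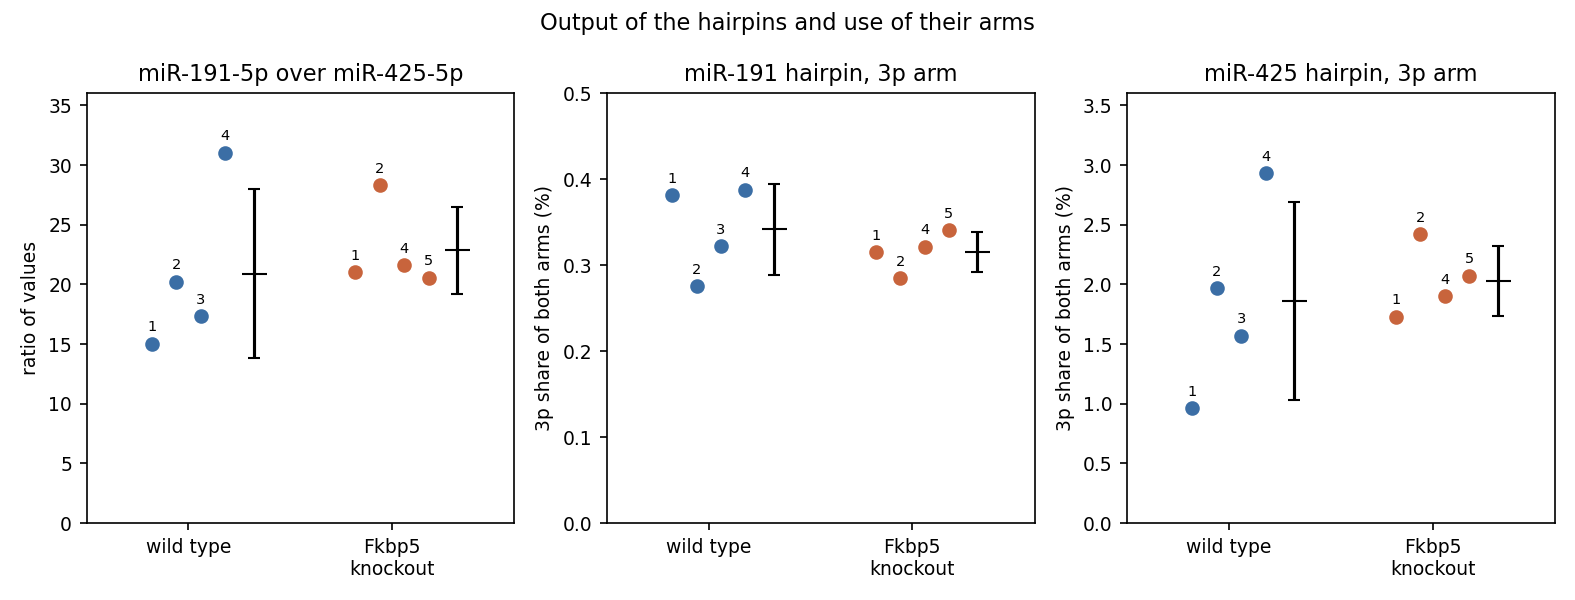
Left, ratio of the deposited values of miR-191-5p to miR-425-5p; middle and right, share of the 3p arm (percent of both arms) for each hairpin, in 4 wild-type (blue) and 4 knockout (orange) libraries with replicate numbers and mean ± SD. The ratio runs from 15.05 in wild-type replicate 1 to 31.0 in wild-type replicate 4, and the same libraries hold the lowest and highest 3p share of miR-425, 0.962% and 2.93%. Both measures are divided by values that hold miR-425-5p, so they are not separate observations.

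The spread between libraries set the guides apart. The SD of log2(value + 1) over the 8 libraries was 0.07 for miR-191-5p, the 7th lowest of 599, and 0.28 for miR-425-5p, the 339th. miR-191-3p had 0.16 and miR-425-3p 0.24, beside a median of 0.26 over all tested miRNAs. Spread falls with level, so each strand was also set beside the 50 miRNAs nearest to it in mean level. Of those 50, 49 varied more than miR-191-5p (median SD 0.15), while 7 varied more than miR-425-5p (median SD 0.17). For miR-191-3p 43 of 50 varied more, and for miR-425-3p 37 of 50. The SD of miR-191-5p depends on the scaling: it was 0.06 by median of ratios, 0.11 by library totals and by upper quartile, and 0.19 in the values as deposited. The deposited values are whole numbers with unequal totals and no visible scaling, so they may be raw counts, and results without rescaling may then carry sequencing depth.

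Among 18 miRNAs often used as references, miR-191-5p had the 3rd lowest SD. miR-26a-5p (0.05) and miR-186-5p (0.07) varied less. miR-425-5p was 17th, between miR-103-3p (0.26) and miR-423-3p (0.30). The other abundant members, let-7a-5p (0.14) and let-7i-5p (0.19), lay between the guides. miR-186-5p and miR-423-3p are named for their place in this order, after their values were seen. By genotype, 0 of the 18 passed at an adjusted p of 0.05 by limma, again against 0% of all tested. By sign 10 were higher and 8 lower in the knockout, and their median log2 fold change was 0.02.

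**Figure D3:**
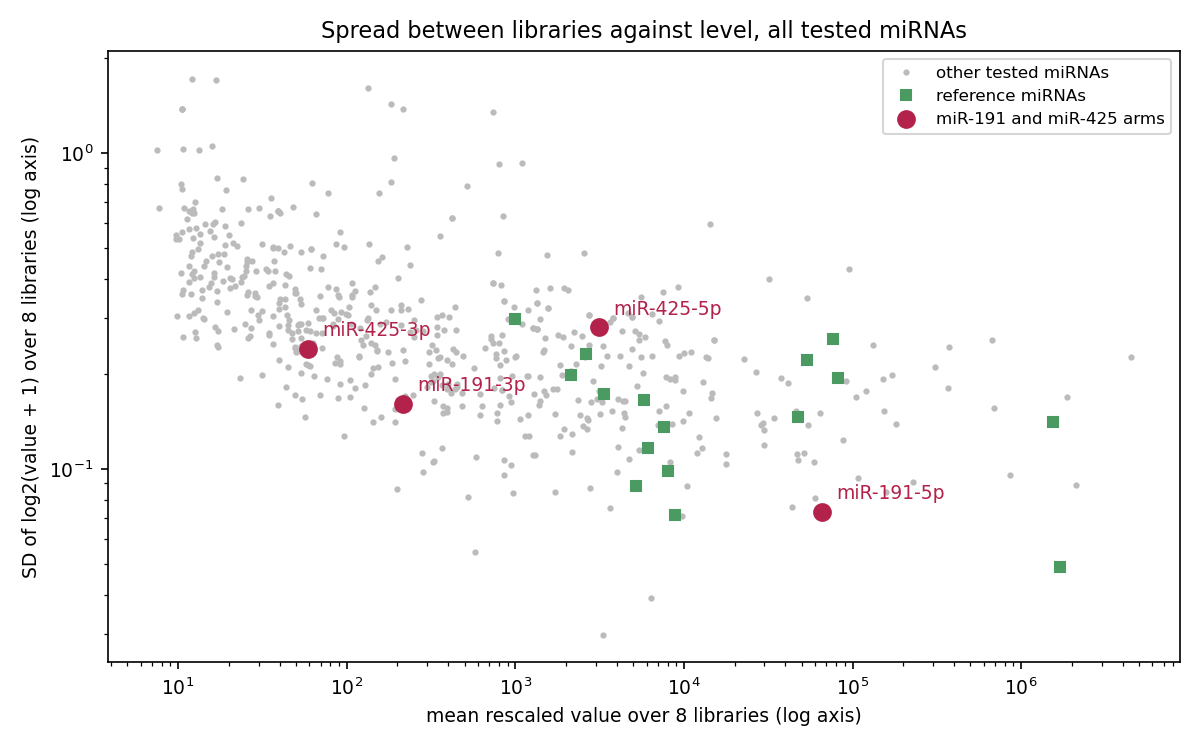
SD of log2(value + 1) over 8 libraries against mean rescaled value for 599 tested miRNAs, both axes logarithmic; squares are the other reference miRNAs and large circles the 4 strands of the cluster. miR-191-5p lies at the lower edge of the cloud (SD 0.07) and miR-425-5p in its upper part for its level (SD 0.28).

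How the strands of this locus varied together depended on the pair and on the scaling. Over the 8 libraries, the rank correlation of miR-191-5p and miR-425-5p was negative, with a Spearman rho of -0.952 (exact permutation p = 0.00114, adjusted over 6 pairs 0.00685). Pearson's r was -0.762 (exact permutation p = 0.0337, adjusted 0.202), and -0.860 without wild-type replicate 1 and knockout replicate 2, the libraries farthest from the median of miR-191-5p. Taken as deviations from the genotype means, r was -0.795. Within wild type the order of miR-425-5p, replicates 1, 3, 2, 4 from high to low, was exactly the order of miR-191-5p from low to high. Without wild-type replicate 4, r was -0.929 (exact permutation adjusted p = 0.0155). The rank correlation passed under this scaling alone: rho was -0.524 by median of ratios, -0.429 by library totals, -0.381 by upper quartile and 0.50 in the values as deposited, with exact permutation adjusted p of 0.401 or more. Pearson's r also turned positive as deposited, at 0.474. A positive relation between the guides was thus seen only without scaling, and it did not pass.

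The other 5 pairs did not pass under the main scaling. miR-425-5p and miR-425-3p, the arms of a single hairpin, had r = -0.688 (exact permutation p = 0.0734, adjusted 0.220; rho -0.476, exact adjusted p = 0.720), and r = -0.328 without wild-type replicates 1 and 4. By upper quartile scaling their rho was -0.976 (exact permutation adjusted p = 0.00238). miR-191-5p and miR-191-3p had r = 0.00888 (rho 0.119; exact permutation p = 0.982 and 0.793), and 0.720 without wild-type replicate 1 and knockout replicate 2. miR-191-5p and miR-425-3p had r = 0.585 (rho 0.381; exact permutation p = 0.167 and 0.360). That fell to 0.133 without the same libraries and was 0.836 by library totals (exact permutation adjusted p = 0.0229). miR-191-3p had r = -0.348 with miR-425-5p (rho -0.262; exact permutation p = 0.391 and 0.536) and -0.193 with miR-425-3p (rho 0.0952; exact permutation p = 0.551 and 0.840). Without wild-type replicates 2 and 4 these were 0.555 and -0.645. Across the 6 pairs, exact permutation adjusted p of r ran from 0.202 to 0.982 and that of rho, apart from the guides' pair, from 0.720 to 0.840.

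**Figure D4:**
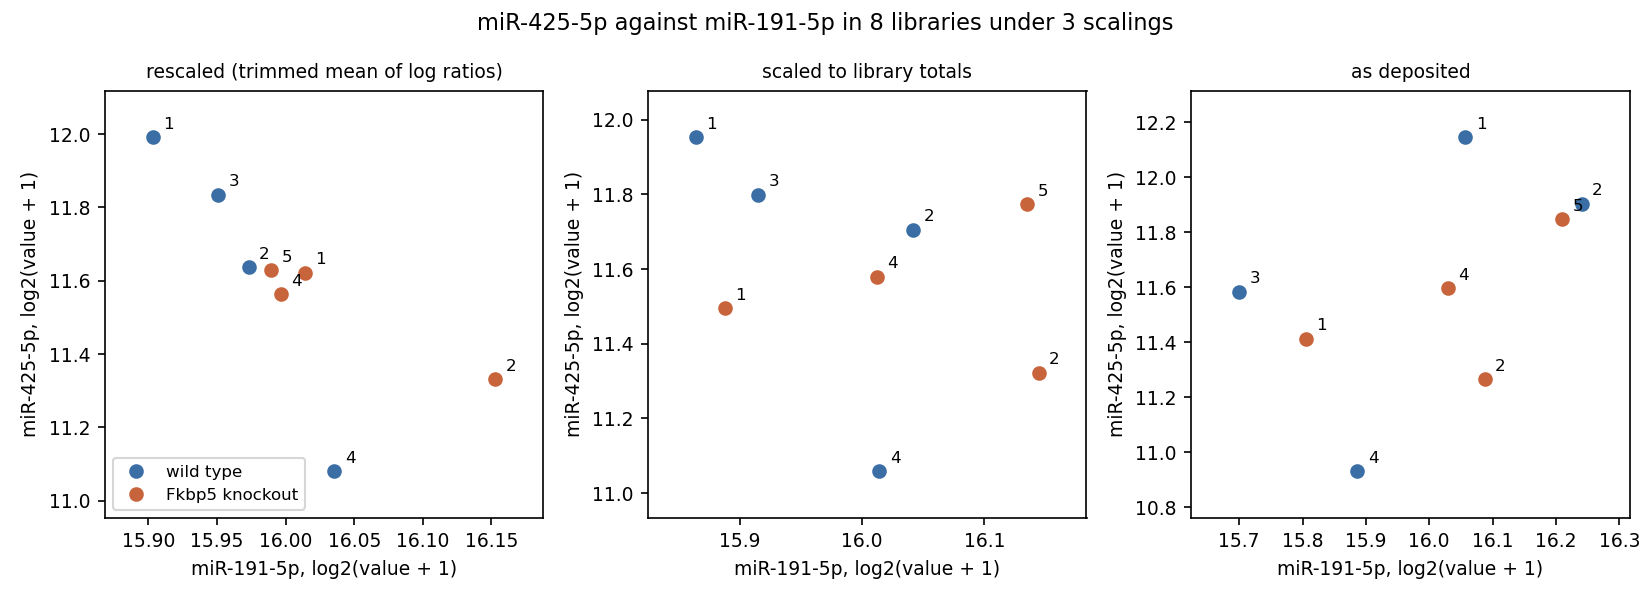
log2(value + 1) of miR-425-5p against miR-191-5p in 8 libraries (blue wild type, orange knockout, with replicate numbers) under 3 scalings; axes do not start at 0. The points fall from upper left to lower right after rescaling (rho -0.952), more loosely by library totals (rho -0.429), and not in the values as deposited (rho 0.50).

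The libraries with the highest and lowest miR-425-5p were also at opposite ends for 2 of the 6 lists of cell markers, red blood cells and oligodendrocytes. The summed level of 4 red blood cell miRNAs, miR-486a-5p, miR-451a, miR-144-5p and miR-144-3p, was lowest in wild-type replicate 1 (163 ppm) and highest in wild-type replicate 4 (293), the libraries with the highest and lowest miR-425-5p. It was 214 to 274 in the knockout. All 4 were detected, with mean rescaled values from 19.1 for miR-144-3p to 3795 for miR-486a-5p. The next highest, miR-451a, was at 440, so the sum was mostly miR-486a-5p and says little of the other members. By sign, miR-486a-5p was higher in the knockout (log2 fold change 0.25) and the other 3 were lower. The 4 oligodendrocyte miRNAs (miR-219a-2-3p, miR-338-5p, miR-338-3p and miR-219a-5p) summed to 1562 in wild-type replicate 1 and 1120.5 in replicate 4, the highest and lowest of all 8, and to between 1144 and 1289 in the knockout. The part of these cell types in the spread of miR-425-5p was not tested. Microglia and leukocyte miRNAs, with 5 of 5 tested, summed to 442 to 573 in wild type and 527 to 713 in the knockout. Most of that sum was miR-150-5p, at a mean rescaled value of 9994 against 368 for the next highest, miR-142a-5p. By sign, 3 of the 5 were higher in the knockout, miR-150-5p among them (log2 fold change 0.18). The 2 lower were miR-142a-5p (-0.37) and miR-223-3p (-0.34). Endothelial and smooth muscle miRNAs, with 4 of 4 tested, summed to 3777 to 5674 and 2983 to 4607, and 3 weakly specific astrocyte miRNAs to 1585 to 2206 and 1466 to 2014. The other 4 lists did not have both of these libraries at their ends. Microglia and leukocyte miRNAs were lowest in wild-type replicate 1 and highest in knockout replicate 2, and neuronal miRNAs lowest in wild-type replicate 2 and highest in wild-type replicate 4. Endothelial and smooth muscle miRNAs were highest in wild-type replicate 2 and lowest in knockout replicate 4, and astrocyte miRNAs highest in wild-type replicate 2 and lowest in knockout replicate 1. No member of the 6 lists passed at an adjusted p of 0.05 by limma, against 0% of all 599 tested. The smallest adjusted p was 0.967, for miR-219a-5p and miR-143-3p, the 2 members with an unadjusted p under 0.05 (4.01% of all tested), named after their values were seen.

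The miRNAs most like each guide over the 8 libraries were different ones. By Pearson's r of log2 values, miR-191-5p was closest to miR-433-3p (0.928), miR-760-3p (0.910) and miR-383-5p (0.910). miR-425-5p was closest to miR-146b-5p (0.918), let-7j (0.898) and miR-340-3p (0.882). Taken as deviations from the genotype means, these 6 values were between 0.875 and 0.931. In the order of all miRNAs by likeness to miR-191-5p, its cluster partner miR-425-5p came 589th of 598. These are the highest of many correlations over 8 libraries that share a scaling, so they are given as a description.

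Other pairs of miRNAs from shared transcripts were set beside the cluster by the SD of their log2 ratio over the 8 libraries. The ratio of miR-191-5p to miR-425-5p had an SD of 0.34, the 10th lowest of 12 pairs. miR-221-3p and miR-222-3p kept the most constant ratio (SD 0.09), followed by miR-99b-5p and miR-125a-5p (0.09), miR-183-5p and miR-182-5p (0.16) and miR-132-3p and miR-212-5p (0.18). miR-143-3p and miR-145a-5p (0.31) and miR-411-5p and miR-299a-5p (0.33) varied about as much as the cluster. miR-93-5p and miR-25-3p (0.34) also did, and miR-144-3p and miR-451a, the former at 19.1 on average, varied most (0.73). These pairs are named for their place in the order, after their values were seen. The knockout minus wild-type difference of the log2 ratio was 0.17 for the cluster and ran from -0.35 to 0.17 over the 12 pairs.

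**Figure D5:**
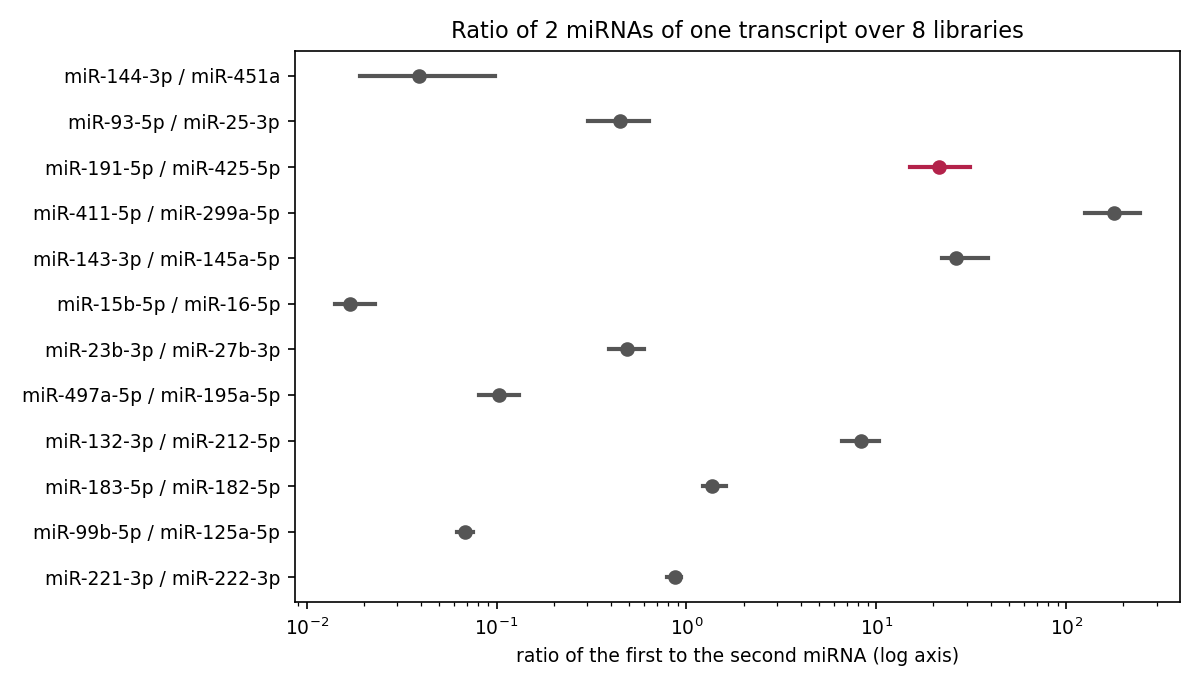
Ratio of 2 miRNAs of a shared transcript (log axis) for 12 pairs, ordered by the SD of the log2 ratio; dots are the mean of the log2 ratio over 8 libraries and lines run from the lowest to the highest library. miR-191-5p over miR-425-5p (red) runs from 15.05 to 31.0, and miR-221-3p over miR-222-3p from 0.791 to 0.941.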

How the data were processed

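Per the file headers, the authors deposited a normalized count for each mature miRNA, used here as a score because the normalization is not given in the sources used here. All are whole numbers with unequal totals and may be raw counts, but the header was followed and no count model was run. Per the submitters' processing notes, the tools were cutadapt 1.11, Bowtie 1.1.2, HTSeq 0.6.1p1, edgeR and R, on mm10. No interval for counting error was computed.

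Values were rescaled by a trimmed mean of log ratios (30% of ratios and 5% of levels trimmed; divisors 0.840 to 1.20). miRNAs with at least 10, scaled to the median library, in 4 libraries and a total of 15 were tested: 599, holding 99.99% of all values. limma 3.58.1 (R 4.3.3) compared log2(value + 1) between genotypes (mean-variance trend; Benjamini-Hochberg adjusted p under 0.05). The log2 arm ratios of 141 hairpins, each arm averaging 20 or more, were treated alike. Adding 1 understates fold changes of low miRNAs. Single measures and correlations were tested by exact permutation (scipy 1.17.1), hairpins folded with RNAfold 2.7.2, and both procedures tested on simulated data. The members, lists and rule for naming miRNAs were chosen with earlier results of these data known. That rule takes the 4 strands, the 3 miRNAs most like each guide, neighbours in level, shared seeds, and abundant or called members of each list.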

Additional observations from a re-analysis of the deposited data

Results flagged for a closer look

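Of 18 groups of 4 libraries examined for these strands, in 3 groups the highest library was set off from the rest by a gap beyond the 95% limit for 4 values. Chance alone gives about 1 in 20 groups, or 0.9 here. All 3 are knockout replicate 2 and all involve miR-191-5p, so they are not separate observations. miR-191-5p was at a rescaled value of 72856 there, against 65064 to 66177 in the other knockout libraries. The log2 ratio of miR-191-5p to miR-425-5p was 4.8224 (the others 4.3612 to 4.4335), and that of the hairpins' summed arms 4.7911 (the others 4.3359 to 4.4104). Without this library the log2 fold change of miR-191-5p was 0.03 and the genotype difference of the 5p ratio 0.07. The high and low wild-type libraries for miR-425-5p, replicates 1 and 4, did not stand apart from their group by this measure.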

How the results depend on the processing

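Of 128 alternative values for 9 genotype differences, 122 kept their direction and 0 passed an adjusted p of 0.05. The smallest, 0.0857 by exact permutation, was for the output ratios without wild-type replicate 4. Exact permutation tests with a library left out cannot give a p below 0.0571, and those with the replicate block cannot reach 0.05 either. For the output ratios and the summed share these alternatives therefore could not pass, and only their direction and size are informative. Upper quartile scaling turned miR-191-3p to 0.021. Leaving out 1 library gave log2 fold changes of 0.03 to 0.08 for miR-191-5p, -0.13 to 0.045 for miR-191-3p (0.013 without wild-type replicate 1), -0.30 to 0.027 for miR-425-5p and -0.024 to 0.19 for miR-425-3p. Arm ratio differences were 0.04 to 0.20 (Mir191) and -0.49 to 0.052 (Mir425), hairpin output differences 0.03 to 0.37, and those of the summed share 117 to 329.7 ppm. miR-425-3p at 10 ppm, and Mir425 at an arm minimum of 100, were left untested by those filters.

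The alternatives for correlations and spread were chosen after seeing the data. As deposited, r turned to 0.474 (miR-191-5p with miR-425-5p), 0.360 (miR-191-3p with miR-425-5p), 0.300 (miR-191-3p with miR-425-3p) and 0.0353 (miR-425-5p with miR-425-3p). By library totals it was 0.836 (miR-191-5p with miR-425-3p) and 0.120 (miR-191-3p with miR-425-3p). The SD of miR-191-5p moved from 0.07 to 0.19 as deposited. The cause was not tested. Over the omissions of a single library, r was -0.929 to -0.652 for the guides, -0.177 to 0.227 for the arms of Mir191, -0.751 to -0.479 for those of Mir425, 0.250 to 0.753 for miR-191-5p with miR-425-3p, -0.688 to 0.343 for miR-191-3p with miR-425-5p and -0.567 to 0.266 for miR-191-3p with miR-425-3p.

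Nothing in the labels says that replicate numbers pair libraries. Taken as deviations of log2 values from the genotype means, same-numbered libraries correlated at 0.0648, -0.0385 and 0.132. By that measure, 1 of 3 knockout libraries correlated best with the wild-type library of its own number. With a replicate block on numbers 1, 2 and 4 the log2 fold changes were 0.09, -0.07, -0.06 and 0.11 for miR-191-5p, miR-191-3p, miR-425-5p and miR-425-3p. The arm ratio differences were 0.17 and -0.17, the output differences 0.15 (both arms) and 0.15 (5p), and that of the share 86.5 ppm. For the output measures and the share, the exact permutation test with the block had too few arrangements to give a p under 0.05, so no call could arise. The block changed no call of the 4 strands or of either hairpin. Over all 141 hairpins it called 2 arm ratios, against 0 in the same 6 libraries without the block and 0 in all 8, and over all 599 miRNAs it called 0.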
